A study of Mus musculus with 24 samples.

Results

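The inducible and constitutive heat shock chaperones were followed in the mouse liver as 10 genes: Hspa1a, Hspa1b, Hspa8, Hsp90aa1, Hsp90ab1, Hsph1, Dnajb1, Hspb1, Hspb8 and Hspe1. Their members on the array were all probe sets whose only annotated gene was 1 of these 10, which gave 24 of the 34945 single-gene probe sets. These 24 probe sets measured 9 genes. None was annotated to Hsp90ab1 alone, so Hsp90ab1 has no value here. A filter that removed the dimmest 40% of all probe sets left 23 of the 24, and all 9 genes were among the 13118 genes tested. The one that did not pass was 1441827_x_at of Hsp90aa1, which lay between the floor of 3.00 and 3.66 on the log2 scale. The name "cytosolic" fits 9 of the 10 genes listed: the product of Hspe1 is the co-chaperonin of the mitochondrial matrix.

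The samples were livers of male BALB/c mice, 6 weeks old on arrival, that ate the purified diet AIN-93G for 14 days. The diet held no phloridzin (control) or phloridzin at 0.1%, 0.5% or 1.0%, and the labels describe 6 mice per diet, 3 to a cage. Phloridzin is a plant glucoside that blocks sodium-glucose cotransporters, and the series title asks how it affects blood glucose and liver transcripts. The mice carried no transgene or deletion, all groups shared the strain, sex and base diet, and livers were whole tissue.

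Heat shock proteins hold unfolded or newly made proteins and help them to fold. HSP70 proteins (Hspa genes) bind short exposed stretches in a cycle driven by ATP, which J-domain proteins such as Dnajb1 start and nucleotide exchange factors such as Hsph1 reset. HSP90 proteins act later, on kinases, steroid receptors and other clients handed over by Stip1. Small heat shock proteins (Hspb genes) hold unfolded clients without ATP. In the liver, Hspa8 and Hsp90ab1 are largely made at all times, while Hspa1a, Hspa1b, Dnajb1, Hsph1 and Hsp90aa1 are strongly induced by heat shock factor 1 when proteins unfold. Whole tissue was measured, so fewer cells of a type and less RNA per cell cannot be told apart.

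The 24 arrays held fewer than 24 separate RNAs. Over 1463 bright genes, 13 of the 276 array pairs differed with an SD of 0.0436 to 0.0577 (log2), and 8 further pairs, at 0.108 to 0.137, matched in their most variable genes. Averaging these left 11 RNA samples: 4 control, 3 at 0.1%, 2 at 0.5% and 2 at 1.0%. The control samples were replicates 1 and 3 averaged, replicates 2 and 4 averaged, replicate 5 and replicate 6. The 0.1% samples were replicates 2, 4 and 5. The 0.5% samples were replicates 1, 2, 3 and 6 averaged and replicates 4 and 5 averaged. The 1.0% samples were replicates 2, 3, 5 and 6 averaged and replicate 4. One further RNA stood under the labels of 2 diets (0.1% replicates 1, 3 and 6 and 1.0% replicate 1) and entered no comparison. All values below are log2 signals after quantile normalization, each sample is listed in the order just given, and errors are the standard errors of the limma fit unless called SD. Nothing shows that the 11 RNAs were 11 mice, so p-values measure only the spread between these samples.

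At 1.0% phloridzin the inducible HSP70 genes and their J-domain partner were lower than in control liver, and Hsp90aa1 was higher, but no chaperone gene passed the adjusted test. Hspa1b was 3.83-fold lower and Hspa1a, which lay near the floor, 3.76-fold lower, Dnajb1 was 1.79-fold lower, and Hsp90aa1 was 2.08-fold higher. Hspa8, the constitutive HSP70, and Hspe1 were within 1.08-fold of control. With limma and Benjamini-Hochberg adjustment over 13118 genes, 0 of the 9 genes were called at 1.0% against control, where 0.0152% of all genes were called, and the lowest adjusted p was 0.708. At an unadjusted limma p under 0.05, 5 of 9 were past the threshold (Hsp90aa1 higher; Hspa1a, Hspa1b, Dnajb1 and Hspb8 lower), against 6.49% of all genes. In 6 of 9 genes the 1.0% samples did not overlap the control samples, against 20.6% of all genes. The 9 genes were chosen with earlier results of these data known, and Hspa1a and Hspa1b can share signal. Counts of members here and below are therefore not a test of the set. The median change of the 9 genes was −0.10, beside −0.024 over all genes tested.

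**Figure D1:**
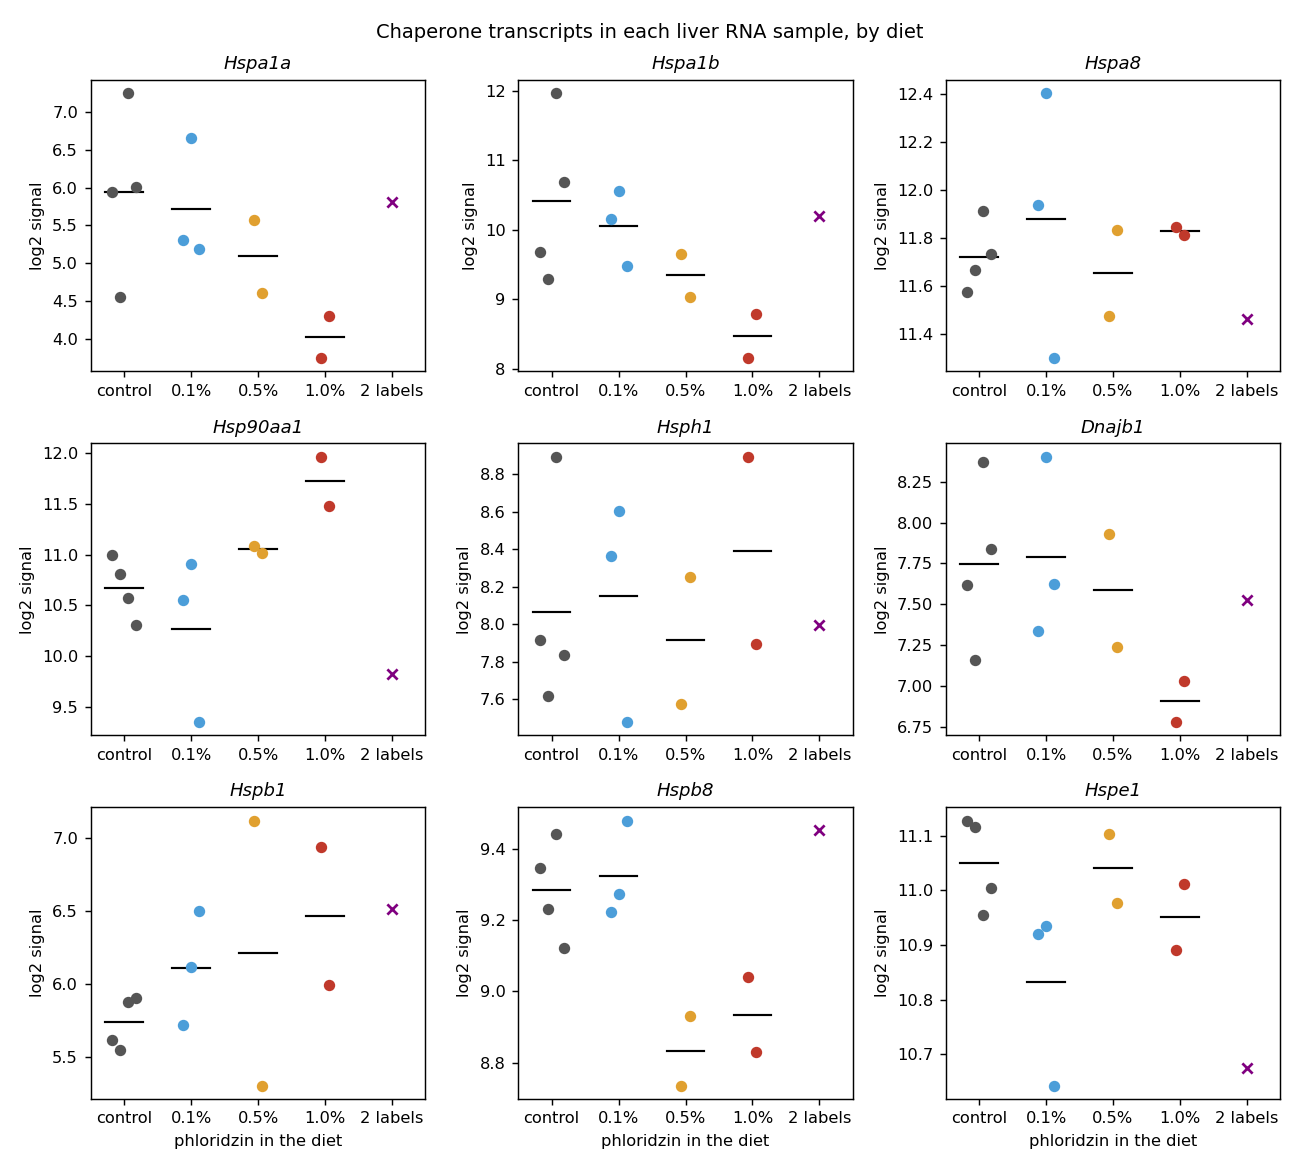
Log2 signal of the 9 chaperone genes (vertical axes) in each RNA sample by diet (horizontal axes); points are RNA samples, black bars are diet means, and the cross is the RNA that carries the labels of 2 diets. Both 1.0% samples lie below every control sample for Hspa1a, Hspa1b and Dnajb1 and above every control sample for Hsp90aa1.

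Hspa1a and Hspa1b encode nearly the same stress-inducible HSP70 protein from neighbouring copies. Their promoters are shown to set out how alike the copies are before the start site. This likeness does not bear on signal shared by their probe sets, and shared control of the genes was not tested. The 250 bases before each start site, 5′ to 3′ on the minus strand of GRCm38.p6 (RefSeq), differ at only 3 bases, printed in capitals. Hspa1a lies at chr17:34972157-34972406 and Hspa1b at chr17:34959239-34959488.
Hspa1a: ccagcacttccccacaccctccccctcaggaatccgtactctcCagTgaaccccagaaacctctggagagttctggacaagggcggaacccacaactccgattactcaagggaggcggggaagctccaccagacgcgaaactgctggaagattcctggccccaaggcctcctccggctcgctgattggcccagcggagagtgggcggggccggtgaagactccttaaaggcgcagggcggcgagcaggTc
Hspa1b: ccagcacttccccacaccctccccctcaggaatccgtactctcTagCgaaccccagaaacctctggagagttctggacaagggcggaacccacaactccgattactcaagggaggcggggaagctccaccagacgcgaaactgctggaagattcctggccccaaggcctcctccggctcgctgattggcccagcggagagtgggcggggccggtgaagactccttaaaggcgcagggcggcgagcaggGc
Over the full window of 300 bases, from 250 before to 50 after the start, 296 bases (98.67%) were the same. Counted from 1 at the 5′ end, with the Hspa1a base first, the differences were C44T, T47C, T249G and C276T. A strict form of the heat shock element was searched on both strands of all windows of this length as GAANNTTCNNGAA (on the other strand TTCNNGAANNTTC), and 198 of 32851 promoters (0.603%) held it. The RefSeq table gave 9 promoters of 7 of the 10 genes, and the element was found in Hsph1 and Hspe1. These letters were not in the windows of Hspa1a, Hspa1b, Dnajb1, Hspb1 and Hspb8. Looser forms of the element were not searched for, so their presence in these windows was not tested. The matches, in capitals, are set out as they show the motif in the genes described below.
Hsph1: TTCTGGAAAGTTC
Hspe1: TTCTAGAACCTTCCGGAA
The Hsph1 match lies at chr5:149636288-149636300 on the minus strand, 15 or 36 bases after the start site depending on which of its 2 start sites is used. The Hspe1 match lies at chr1:55088059-55088076 on the plus strand, 89 bases before the start site, and holds 2 overlapping copies of the motif.

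Hspa1b, read by 1452318_a_at, stood at 9.68, 9.29, 11.97 and 10.69 in the control samples, 10.15, 10.55 and 9.47 at 0.1%, 9.65 and 9.04 at 0.5%, and 8.15 and 8.79 at 1.0%. Both 1.0% samples were below all samples of the other diets, control replicate 5 was the highest, and the 0.1% and 0.5% samples overlapped the controls. Hspa1b was −1.94 ± 0.54 at 1.0% against control (limma adjusted p = 0.708), −1.06 ± 0.54 at 0.5% (adjusted p = 0.960) and −0.35 ± 0.48 at 0.1% (adjusted p = 0.849). The control samples alone had an SD of 1.19 (n = 4).

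Hspa1a has a single probe set, 1452388_at. It gave 5.94, 4.56, 7.25 and 6.00 in control, 5.31, 6.65 and 5.19 at 0.1%, 5.58 and 4.61 at 0.5%, and 3.75 and 4.30 at 1.0%. As for Hspa1b, both 1.0% samples were the lowest and control replicate 5 the highest. The 1.0% samples lay near the floor of 3.00, and with a higher floor of 32 on the linear scale the change at 1.0% was −1.05, so the size of the Hspa1a fold depends on the floor. The change at 1.0% was −1.91 ± 0.58 (limma adjusted p = 0.715), with −0.85 ± 0.58 at 0.5% and −0.22 ± 0.51 at 0.1%. Without control replicate 5 the 0.1% value was 0.22 and that of Hspa1b 0.17, so the sign at 0.1% turned for both genes, while at 1.0% they were −1.48 and −1.42. Without 0.1% replicate 5 the 0.1% value of Hspa1a was 0.043. At 0.5%, Hspa1b was −0.54 without control replicate 5. Hspa1a at 0.5% was −0.41 without control replicate 5, −0.36 without 0.5% replicates 4 and 5, −1.31 without control replicates 2 and 4, and −1.33 without 0.5% replicates 1, 2, 3 and 6. With the RNA of 2 labels added under each of its diets, the 1.0% values were −1.30 for Hspa1a and −1.35 for Hspa1b.

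The other Hspa1b probe sets gave the same picture at 1.0% against control. It was −1.62 ± 0.41 for 1427127_x_at and −1.66 ± 0.43 for 1427126_at, and the 1.0% samples lay below all control samples in each. Over the 11 samples, Pearson r between the 3 Hspa1b probe sets was 0.969 to 0.993, and r between Hspa1a and Hspa1b probe sets was 0.878 to 0.940. These are copies of nearly identical sequence that can share signal, so the 4 probe sets are not 4 independent measurements.

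Dnajb1, the J-domain protein that stimulates HSP70, was read by 1416755_at at 7.62, 7.16, 8.37 and 7.84 in control, 7.34, 8.40 and 7.62 at 0.1%, 7.93 and 7.24 at 0.5%, and 6.78 and 7.03 at 1.0%. Both 1.0% samples were below every other sample. Its change was −0.84 ± 0.32 at 1.0% (limma adjusted p = 0.758), −0.16 ± 0.32 at 0.5% and 0.041 ± 0.28 at 0.1%. Under median centring the 0.1% value was −0.094, without scaling −0.18, and without 0.1% replicate 4 it was −0.27. It was also below 0 without control replicates 2 and 4 (−0.15) or 1 and 3 (−0.0013). Without 0.5% replicates 4 and 5 the 0.5% value was 0.19, and without control replicate 5 it was 0.048. The second probe set, 1416756_at, was −0.25 ± 0.22 at 1.0%, where its samples at 7.14 and 6.66 overlapped the controls at 6.76 to 7.60. Its r with the first was 0.544. Its lowest diet mean was at 0.5%, where it was −0.48 ± 0.22 against control (limma adjusted p = 0.929). Against 0.1% it was −0.72 ± 0.24 at 0.5% (limma adjusted p = 0.384). The limma F-test over the diets gave it an unadjusted p of 0.0425 (adjusted p = 0.493).

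Hsph1, an HSP110 protein that exchanges the nucleotide of HSP70, varied within diets as much as between them on its brighter probe set. Its probe set 1425993_a_at gave 7.91, 7.62, 8.89 and 7.84 in control, 8.37, 8.60 and 7.48 at 0.1%, 7.58 and 8.25 at 0.5%, and 8.89 and 7.89 at 1.0%. The diets overlapped throughout. The change was 0.33 ± 0.38 at 1.0% (limma adjusted p = 0.891), −0.15 ± 0.38 at 0.5% and 0.084 ± 0.33 at 0.1%. The sign at 1.0% rested on 1 sample, since without 1.0% replicates 2, 3, 5 and 6 the value was −0.17, and it also turned without scaling, at −0.11. The sign at 0.1% turned without control replicates 2 and 4 (−0.065), 0.1% replicate 2 (−0.023) or 0.1% replicate 4 (−0.14). That at 0.5% turned without control replicate 5 (0.12) or 0.5% replicates 1, 2, 3 and 6 (0.19). The second probe set, 1423566_a_at, had r = 0.784 with the first and 0.62 ± 0.35 at 1.0%. Against control it was −0.43 ± 0.31 at 0.1%, where the first was above 0, and −0.57 ± 0.35 at 0.5%. At 1.0% it was 1.05 ± 0.37 against 0.1% (limma adjusted p = 0.282) and 1.19 ± 0.41 against 0.5%. Its limma F-test over the diets gave an unadjusted p of 0.0372 (adjusted p = 0.482).

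Hspa8, the constitutive HSP70 that folds new proteins and uncoats clathrin vesicles, differed little between the diets. Its probe set 1455789_x_at gave 11.58, 11.67, 11.92 and 11.74 in control, 11.94, 12.41 and 11.30 at 0.1%, 11.47 and 11.84 at 0.5%, and 11.85 and 11.81 at 1.0%. The 0.1% samples spread the most, on both sides of the controls. The change was 0.11 ± 0.22 at 1.0%, −0.069 ± 0.22 at 0.5% and 0.16 ± 0.19 at 0.1%, with limma adjusted p-values of 0.952, 0.993 and 0.830. The value at 1.0% was −0.13 after median centring and −0.29 without scaling, settings that moved the median of all genes to −0.20 and −0.35, so relative to that median Hspa8 was higher in both. The sign at 0.1% turned without 0.1% replicate 4 (−0.10), and that at 0.5% turned without 0.5% replicates 1, 2, 3 and 6 (0.11).

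Of the Hspa8 probe sets, 3 moved together, with r from 0.794 to 0.940. The fourth, 1431182_at, lay nearer the floor and did not follow them, with r from −0.138 to 0.107. It gave 4.80, 4.53, 6.12 and 5.61 in control, 6.18, 5.57 and 5.18 at 0.1%, 7.20 and 5.98 at 0.5%, and 6.25 and 5.99 at 1.0%. Its change was 1.33 ± 0.43 at 0.5% and 0.86 ± 0.43 at 1.0%, neither past the adjusted threshold (limma adjusted p = 0.689 and 0.782). The 3 bright probe sets gave −0.12 to −0.069 at 0.5% and 0.029 to 0.16 at 1.0%.

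Hsp90aa1, the inducible cytosolic HSP90, had the largest positive difference of the 9 genes at 1.0%. Its probe set 1438902_a_at gave 10.99, 10.81, 10.57 and 10.30 in control, 10.55, 10.91 and 9.35 at 0.1%, 11.09 and 11.02 at 0.5%, and 11.97 and 11.48 at 1.0%. Both 1.0% samples were above every other sample, both 0.5% samples were just above the highest control, and 0.1% replicate 5 was the lowest. The change was 1.05 ± 0.32 at 1.0% (limma adjusted p = 0.715), 0.39 ± 0.32 at 0.5% (adjusted p = 0.984) and −0.40 ± 0.28 at 0.1% (adjusted p = 0.703). Without 0.1% replicate 5 the 0.1% value was 0.059. The RNA of 2 labels stood at 9.83, below all controls, and with it added under both diets the 1.0% value was 0.43.

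The bright Hsp90aa1 probe sets moved together. At 1.0% against control 1426645_at was 1.15 ± 0.43 and 1437497_a_at was 1.26 ± 0.31, and r among the 3 bright probe sets was 0.930 to 0.985. The probe set 1437497_a_at, at a limma adjusted p of 0.630, gave 7.74, 7.72, 7.48 and 7.22 in control, 7.50, 7.06 and 6.03 at 0.1%, 7.77 and 7.45 at 0.5%, and 9.08 and 8.51 at 1.0%. The 1.0% samples were above all others, as on the first probe set. At 0.5%, unlike on the first, both other bright probe sets overlapped the controls. Their changes there were 0.18 ± 0.43 for 1426645_at and 0.074 ± 0.31 for 1437497_a_at. At 0.1% against control 1426645_at was −0.67 ± 0.38 (limma adjusted p = 0.595) and 1437497_a_at −0.67 ± 0.27 (adjusted p = 0.471). The dim probe set 1433251_at lay at 3.00 to 3.68 throughout and did not follow the others (r from −0.185 to −0.087).

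Hspb8, a small heat shock protein that works with Bag3 in selective autophagy, was lower at both higher doses. Its probe set 1417013_at gave 9.35, 9.23, 9.44 and 9.12 in control, 9.22, 9.27 and 9.48 at 0.1%, 8.74 and 8.93 at 0.5%, and 9.04 and 8.83 at 1.0%. The 4 samples at 0.5% and 1.0% were below every control and 0.1% sample. The change was −0.45 ± 0.13 at 0.5% (limma adjusted p = 0.620), −0.35 ± 0.13 at 1.0% (adjusted p = 0.747) and 0.039 ± 0.11 at 0.1%. The value at 0.1% turned to −0.054 under median centring and −0.14 without scaling, to −0.038 without 0.1% replicate 5 and to −0.015 without control replicate 6. At 1.0%, the other probe sets gave −0.015 ± 0.22 (1456434_x_at) and −0.21 ± 0.21 (1417014_at), and r among the 3 was 0.467 to 0.729.

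Hspb1 (HSP27, an actin-stabilising holdase) was uneven at the higher doses. Its probe set 1422943_a_at gave 5.62, 5.55, 5.88 and 5.91 in control, 5.72, 6.12 and 6.50 at 0.1%, 7.12 and 5.30 at 0.5%, and 6.94 and 6.00 at 1.0%. Both 1.0% samples were above the controls, but the 0.5% samples were the highest and the lowest of all 11. The change was 0.73 ± 0.40 at 1.0% (limma adjusted p = 0.772), 0.48 ± 0.40 at 0.5% and 0.38 ± 0.35 at 0.1%. It was 0.26 at 1.0% without replicates 2, 3, 5 and 6 of that diet, 1.21 without its replicate 4, and −0.43 at 0.5% without 0.5% replicates 1, 2, 3 and 6. The second probe set, 1425964_x_at, was 0.73 ± 0.44 at 1.0%, with r = 0.700. It was 0.63 ± 0.44 at 0.5% but −0.49 ± 0.39 at 0.1%, so the probe sets differed in sign at 0.1%.

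Hspe1 is the lid of the mitochondrial chaperonin, whose barrel is Hspd1. Its probe set 1450668_s_at gave 11.13, 11.12, 10.96 and 11.00 in control, 10.92, 10.94 and 10.64 at 0.1%, 11.10 and 10.98 at 0.5%, and 10.89 and 11.01 at 1.0%. The 0.1% samples were all just below the controls, and the higher doses overlapped them. The change was −0.22 ± 0.10 at 0.1% (limma adjusted p = 0.569), −0.011 ± 0.11 at 0.5% and −0.10 ± 0.11 at 1.0%. The value at 0.5% was just above 0 when controls 1 and 3 (0.015), controls 2 and 4 (0.011) or 0.5% replicates 4 and 5 (0.052) were left out. Without 0.1% replicate 5 the value at 0.1% was −0.12. Its other probe set, 1422579_at, did not follow it (r = 0.064) and was −0.087 ± 0.15 at 0.1% and 0.15 ± 0.17 at 1.0%. Hspd1 was −0.42 ± 0.13 at 0.1% against control (limma adjusted p = 0.488).

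**Figure D2:**
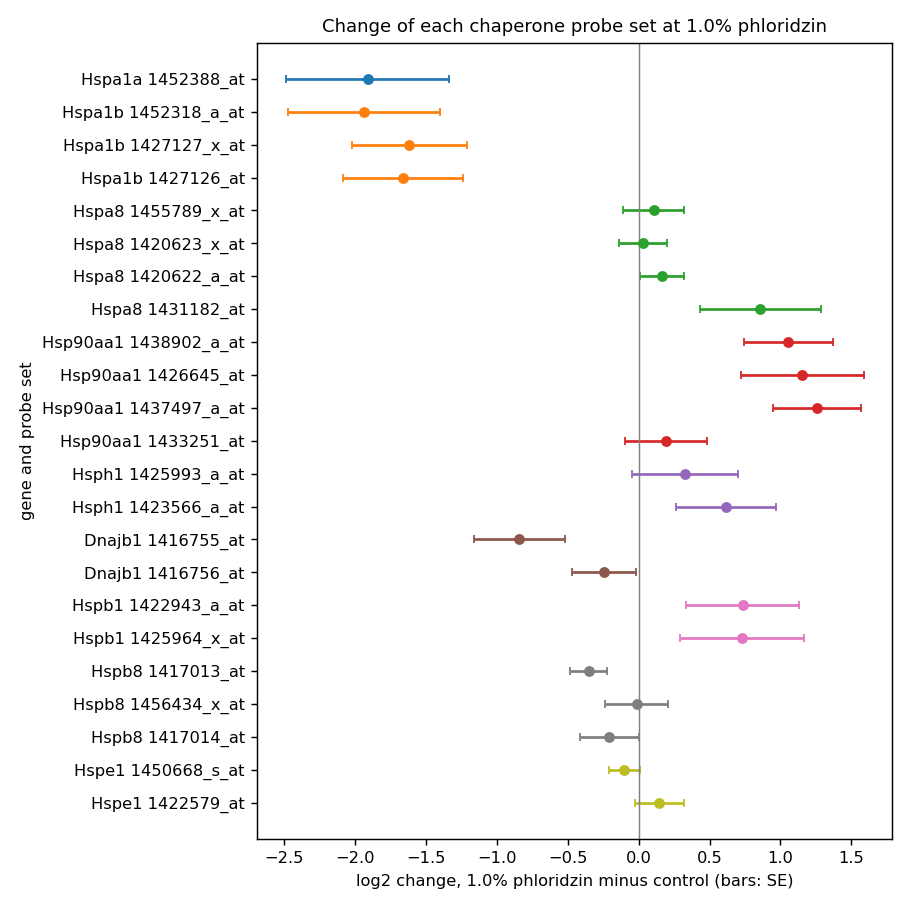
Log2 change at 1.0% phloridzin minus control (horizontal axis) for each of the 23 chaperone probe sets that passed the filter (vertical axis); points are limma estimates, bars are standard errors and colours are genes. All 4 Hspa1a and Hspa1b probe sets lie between −1.94 and −1.62, the 3 bright Hsp90aa1 probe sets between 1.05 and 1.26, and the 2 Hspe1 probe sets on both sides of 0.

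Tested one by one among 22793 probe sets, 0 of the 23 chaperone probe sets were called by limma in any comparison of diets or in the F-test over the 4 diets, where 0.00877% of probe sets were called. At an unadjusted limma p under 0.05 there were 9 of 23 at 1.0% against control, against 6.49% of all probe sets, and 11 of 23 in the F-test, against 9.8%. The lowest adjusted p was 0.630 at 1.0% against control, 0.330 in the F-test and 0.102 at 1.0% against 0.1%, where 1437497_a_at of Hsp90aa1 differed by 1.93 ± 0.33. Probe sets of 1 gene share their RNA, so these counts are not counts of separate events.

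At the lower doses Hspe1 and Hspb8 differed most from control by their p-values. At 0.1% against control 0 of 9 genes were called by limma (0.0229% of all genes), 1 gene, Hspe1, was under an unadjusted p of 0.05 (8.47% of all genes), and the median change was 0.039, beside 0.0032 over all genes. At 0.5% 0 of 9 were called (0.00762% of all genes), and Hspb8 alone was under an unadjusted p of 0.05 (5.22% of all genes), with a median change of −0.15 beside 0.0071. The F-test over the 4 diets called 0 of 9 (0.0152% of all genes), with 4 under an unadjusted p of 0.05, against 9.25% of all genes: Hsp90aa1 (adjusted p = 0.389), Hspb8 (adjusted p = 0.389), Hspa1b (adjusted p = 0.480) and Hspa1a (adjusted p = 0.488).

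Doses were also set against each other. Between 1.0% and 0.1%, Hsp90aa1 differed by 1.45 ± 0.33 (limma adjusted p = 0.182), the lowest adjusted p of any of the 9 genes in any comparison. Without 0.1% replicate 5, the sample in which Hsp90aa1 was lowest, this difference was 0.99. In the same comparison Hspa1a was −1.69 and Hspa1b −1.59 (both adjusted p = 0.306), Dnajb1 was −0.88 (adjusted p = 0.326) and Hspb8 −0.39 (adjusted p = 0.296). These 5 of 9 genes were under an unadjusted p of 0.05, against 12.2% of all genes, and 0 were called (0.0152% of all genes). Between 0.5% and 0.1% and between 1.0% and 0.5%, limma called 0 of 9 chaperone genes (0% of all genes), with 2 (Hsp90aa1 and Hspb8; 10.7% of all genes) and 0 of 9 (4.21% of all genes) under an unadjusted p of 0.05. These comparisons reuse the same samples and are not independent of those against control.

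A slope on the percent of phloridzin gave the same 5 genes at an unadjusted limma p under 0.05 (8.83% of all genes), with 0 of 9 called (0% of all genes). Per 1% of phloridzin in the diet it was −1.90 ± 0.47 for Hspa1b, −1.87 ± 0.50 for Hspa1a and 1.21 ± 0.31 for Hsp90aa1, all at an adjusted p of 0.442. It was −0.82 ± 0.29 for Dnajb1 and −0.45 ± 0.14 for Hspb8, both at an adjusted p of 0.464. The diet means of Hspa1a and Hspa1b were in the order of dose, from 5.94 over 5.72 and 5.09 to 4.03 for Hspa1a and from 10.41 over 10.06 and 9.34 to 8.47 for Hspa1b. That order was lost without control replicate 5, when 0.1% lay above control for both genes, and with all 24 arrays as separate samples (0.042 and 0.021 at 0.1% against control). Neighbouring diets in that order did not differ beyond their spread, since no step between them was past an unadjusted p of 0.05.

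The members did not vary as one group. Over the 11 samples Hspa1a had r = 0.940 with Hspa1b and 0.955 with Dnajb1, and r was 0.887 and 0.955 after each diet's mean was removed. Hspa8 and Hsph1 had r = 0.735 (0.737 within diets). Hsp90aa1 and Hspa1b had r = −0.477 over all samples and 0.031 within diets, where the direction was mixed. Control replicates 5 and 6 were the highest controls in Hspa1b and the lowest in Hsp90aa1. At 1.0% the sample lower in Hspa1b was the higher in Hsp90aa1. At 0.1% and at 0.5% the samples ranked in the same order in both genes. These values describe 11 samples of which several share a diet, and carry no test.

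The genes most like Hspa1a and Hsp90aa1 over these samples were picked by Pearson r among all genes tested. For Hspa1a the highest were Atg4a (0.939), Tmem39a (0.907), C2cd2 (0.904), Adh4 (0.894) and Hsd17b11 (0.886). The lowest were Rell1 (−0.881), Cdc42bpa (−0.874), B230110C06Rik (−0.858), Fbxl12 (−0.852) and Ubxn11 (−0.842). In their lowest samples Cdc42bpa and Ubxn11 lay at the floor of 3.00 and B230110C06Rik at 3.22. Hspa1a itself lay near the floor at 1.0%. For Hsp90aa1 the highest were Hsp90b1 (0.980), the HSP90 of the endoplasmic reticulum, Dnajc3 (0.977), a J-domain protein of the same compartment, Neat1 (0.959), Slc23a1 (0.958) and Prkar2a (0.957). The lowest were Nlrx1 (−0.965), Abhd16a (−0.965), Tbc1d22a (−0.960), Shisa5 (−0.952) and Tgfbrap1 (−0.947). At 1.0% against control Hsp90b1 was 0.63 ± 0.23 and Dnajc3 0.55 ± 0.19. With 11 samples and 13118 genes, high values of r at both ends are a description of these samples only.

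By array title, with repeats left in and the RNA of 2 labels in place, the picture was wider. Hspa1b had a lowest, median and highest value of 9.28, 9.68 and 11.97 on the 6 control arrays, 9.47, 10.17 and 10.55 at 0.1%, 9.01, 9.53 and 9.81 at 0.5%, and 8.04, 8.24 and 10.25 at 1.0%. Hsp90aa1 had 10.30, 10.81 and 11.03 in control, 9.35, 9.83 and 10.91 at 0.1%, 11.01, 11.05 and 11.14 at 0.5%, and 9.85, 11.94 and 12.00 at 1.0%. In both genes the array of 1.0% replicate 1 lay apart from the other 5 arrays of its diet and beside 0.1% replicates 1, 3 and 6. Counting all 24 arrays as separate samples, limma called 3 of 9 genes at 1.0% against control (Hspa1a −1.51, Hspa1b −1.49 and Hspb1 1.03, at adjusted p-values of 0.0387, 0.0272 and 0.0484), Hspb8 at 0.5% (−0.49) and Hspe1 at 0.1% (−0.33). The same fit called 3.06% of all genes at 1.0%, 3.42% at 0.5% and 20.1% at 0.1%. That count treats repeat hybridisations as separate samples.

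**Figure D3:**
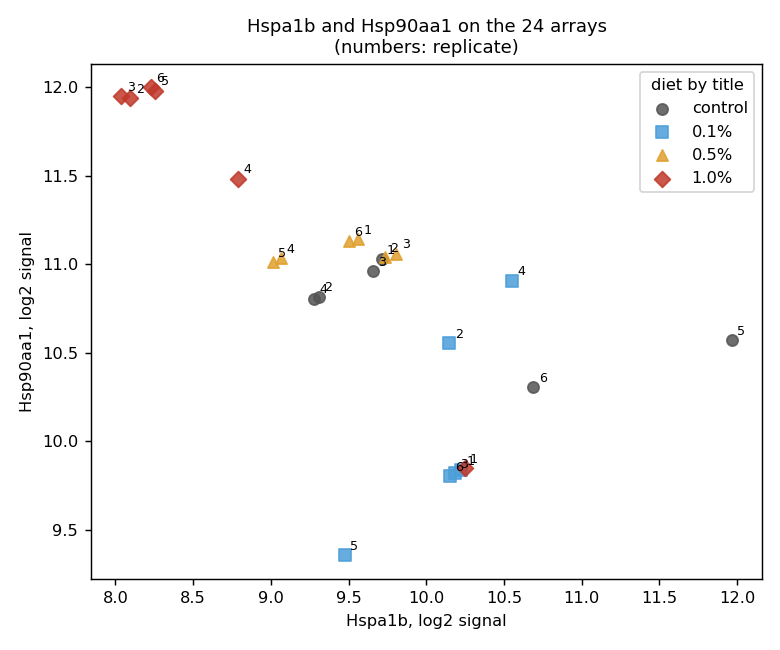
Log2 signal of Hspa1b (horizontal axis) and Hsp90aa1 (vertical axis) on each of the 24 arrays; colour and shape give the diet of the title and the number is the replicate. Of the 6 arrays titled 1.0%, 5 lie at the upper left, while 1.0% replicate 1 lies among 0.1% replicates 1, 3 and 6.

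No gene of the wider chaperone network passed the adjusted test in a comparison against control. Of 80 genes in 7 lists (heat shock factor regulators, other HSP70 proteins and nucleotide exchange factors, J-domain proteins, HSP90 co-chaperones, other small heat shock proteins, mitochondrial chaperones, and the chaperonin TRiC with prefoldin), 71 were tested, and limma called 0 in each comparison against control. At 1.0% 33 were higher and 38 lower, with 4 (5.63%, against 6.49% of all genes) under an unadjusted p of 0.05, at a median of −0.024 beside −0.024 over all genes. At 0.1% 29 were higher and 42 lower with 5 (7.04%, against 8.47%) under that p, and at 0.5% 25 and 46 with 4 (5.63%, against 5.22%). The lowest adjusted p was 0.488, 0.679 and 0.758 at 0.1%, 0.5% and 1.0%. Among the genes not tested, Hsf1 had no probe set of its own, and Hspa12a, Hspb3, Hspb9 and Cryaa did not pass the filter.

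Among HSP90 co-chaperones, Stip1, which joins HSP70 to HSP90, gave 7.24, 7.35, 7.61 and 7.47 in control, 7.34, 7.39 and 7.35 at 0.1%, 7.03 and 6.82 at 0.5%, and 7.96 and 7.65 at 1.0%. It was below the controls at 0.5% (−0.49 ± 0.15, limma adjusted p = 0.679) and above them at 1.0% (0.39 ± 0.15, adjusted p = 0.758). Fkbp5, an immunophilin of steroid receptor complexes, was 0.51 ± 0.17 at 0.1% (adjusted p = 0.495), and Cdc37, which brings kinases to HSP90, was −0.34 ± 0.12 at 0.5% (adjusted p = 0.730). Of the 15 tested in this list, 9 were higher and 6 lower at 1.0%.

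Of 13 other HSP70 proteins and exchange factors, 5 were higher and 8 lower at 1.0%, among them Bag1, an exchange factor, at −0.27 ± 0.13, and Hspa13 at 0.56 ± 0.26. Of 11 J-domain proteins, 5 were higher and 6 lower, with Dnajb4 at −0.44 ± 0.24, Dnajc5 at −0.30 and Dnaja1 at 0.10. Of 9 mitochondrial chaperones and proteases, 3 were higher and 6 lower, with the protease Lonp1 at −0.35 ± 0.16. The chaperonin TRiC and prefoldin had 9 higher and 4 lower, small heat shock proteins other than the members 1 and 4, and heat shock factor regulators 1 and 4. None of these passed the adjusted test.

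**Figure D4:**
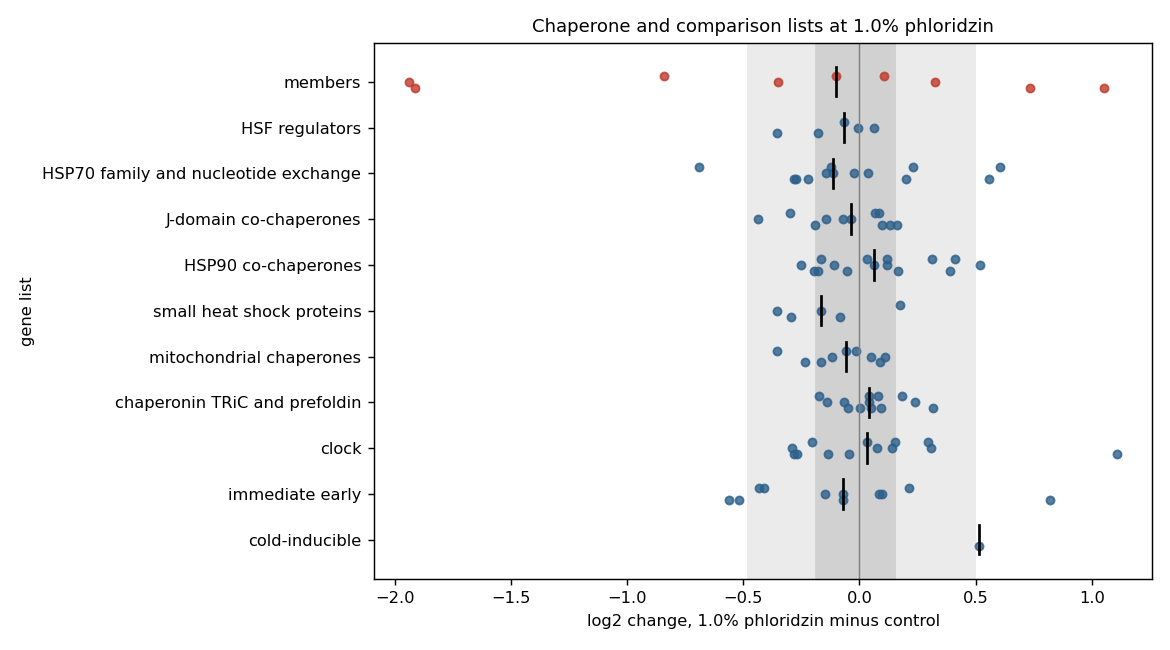
Log2 change at 1.0% phloridzin minus control (horizontal axis) for the 9 chaperone members and the genes of each list (vertical axis); points are genes, black bars are list medians, the dark band spans the quartiles of all genes tested and the light band their 5% to 95% quantiles. Hspa1a and Hspa1b, at −1.91 and −1.94, lie to the left of the light band, whose ends are −0.48 and 0.50, while most genes of the other lists lie inside it.

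Clock, immediate early and cold-inducible genes were read in the same samples. Dbp, an output gene of the clock, gave 9.87, 9.86, 7.93 and 7.63 in control, 11.18, 9.24 and 9.88 at 0.1%, 5.24 and 10.62 at 0.5%, and 10.10 and 9.76 at 1.0%. Control replicates 5 and 6 were low in Dbp and were the 2 highest controls in Hspa1a and Hspa1b. In Hspa1a control replicate 6 (6.00) was only just above control replicates 1 and 3 averaged (5.94). The 0.5% sample of replicates 1, 2, 3 and 6 was far below the others in Dbp and in Nr1d1 (3.56). That sample stood at 5.58 in Hspa1a and 9.65 in Hspa1b, inside the control range of both. The immediate early gene Dusp1 was called at 0.1% (−1.36 ± 0.16, limma adjusted p = 0.0120) and gave 10.27, 10.78, 10.27 and 10.27 in control and 10.44 and 10.21 at 1.0%. Cirbp, which is induced by mild cooling, was 0.52 ± 0.28 at 1.0%. The part of these values in the chaperone results was not tested.

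Hepatocyte markers set the tissue: Alb stood at 13.44 to 13.52 in control and 13.52 to 13.59 at 1.0%, and the mean over 7 of 8 listed hepatocyte markers was 12.81 to 12.93 in control and 12.86 to 12.97 at 1.0%. At 0.5% it was 12.72 to 12.80, below every control. The mean of 3 cholangiocyte markers was 4.25 to 4.32 at 0.5%, against 3.30 to 3.76 in control. Of these 3, only 1 counted as off the floor in control and 2 at 0.5%. The mean of 5 stellate cell markers was 7.57 to 7.75 in control and 7.33 to 7.46 at 1.0%, so it was lower in both 1.0% samples. Of these, 5 counted as off the floor in control and 4 at 1.0%. The mean of 6 Kupffer cell markers was 7.49 to 7.66 in control and 7.09 to 7.40 at 0.1%, where Hspe1 was lower too. Endothelial markers overlapped between control (7.54 to 7.67) and 1.0% (7.57 to 7.66). The signal of the 3′ end of Gapdh minus that of its 5′ end, a measure of RNA integrity, was −0.34 ± 0.045 in control (SD, n = 4) and −0.33 ± 0.029 at 1.0% (SD, n = 2; exact permutation p = 0.8, two-sided, where the 15 splits allow no p below 0.0667). At 0.1% it was −0.19 ± 0.12 (SD, n = 3; exact permutation p = 0.0571 over 35 splits). At 0.5%, where Hspb8 was lower, it was −0.18 ± 0.0041 (SD, n = 2), with both samples above every control (exact permutation p = 0.0667). For actin the same measure was 1.41 ± 0.097 in control, 1.77 ± 0.48 at 0.1%, where replicate 4 stood at 2.32, 1.63 ± 0.21 at 0.5% and 1.36 ± 0.21 at 1.0% (SD). The part of marker levels and RNA integrity in the chaperone results was not tested.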

How the data were processed

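Liver RNA was measured on 24 Affymetrix 1-colour arrays, with biotin-labelled cRNA per the labels' protocols. The deposited table holds linear intensities per probe set, and the method that made them is not given in the sources used here. Array medians ran from 9.49 to 18.0, so the scale is unknown. Levels of different probe sets were used to filter, to pick 1 probe set per gene and to call probe sets bright or dim. They were not compared as amounts of RNA. No detection calls or scan dates were used here, and the number of RNA samples limits the precision.

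Symbols came from the platform annotation, which can be old. Quantile normalization between arrays was followed by a floor of 8 (3.00 on the log2 scale) and log2, and 5.44% of the values of tested genes lay at the floor. A filter on the mean removed the dimmest 40% of probe sets, and each gene was read by its single-gene probe set with the highest mean. Array pairs with an SD of the log2 difference under 0.08 were averaged. So were sets whose median absolute difference over the 200 most variable genes (mean log2 above 7) was under 1.2 times that over the remaining genes. The joins had ratios of 0.929 and 1.10, and the next was 1.29, so the number of 0.5% and 1.0% samples depends on this threshold, which was set with the data known.

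Tests were two-sided, in limma 3.58.1 (R 4.3.3; lmFit, eBayes with trend) with all 4 diets fitted together and 7 residual degrees of freedom. Benjamini-Hochberg adjustment ran over 13118 genes, which were called at an adjusted p under 0.05. The slope was a second limma model, and probe sets were fitted in the same way. The script was tested on simulated data. Named genes were all members, up to 3 genes per list by their lowest p against control, the 5 highest and 5 lowest r with Hspa1a and Hsp90aa1, and a panel of clock, immediate early and cold-inducible genes, in which Rbm3 had no probe set of its own. The members and lists were chosen with earlier results of these data known. Alternatives changed the scaling, floor, filter, probe set, moderation and sample definition and left out each RNA sample in turn. Promoters came from RefSeq (GRCm38.p6), which is not tied to the array annotation's build, and none for Hspa8, Hsp90aa1 or Hsp90ab1 was printed.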

Additional observations from a re-analysis of the deposited data

Results flagged for a closer look

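The RNA that carried the labels of 2 diets lay outside the comparisons, and 2 chaperone genes stood above every control sample in it. Hspb1 was at 6.52, against 5.55 to 5.91 in the 4 control samples, and Hspb8 was at 9.45, against 9.12 to 9.44. For Hspb8 the margin over the highest control was small. The share of all genes that lay outside the control range in this RNA is not given here. These values are therefore not set apart from those of other genes. No control sample of the 9 genes stood apart from the other 3 by Dixon's test.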

How the results depend on the processing

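In all, 12 other settings were run. The adjusted p-values moved with the setting. Under median centring the limma adjusted p at 1.0% against control was 0.114 for Hspa1b and Hspb8. It was 0.118 for Hspa1a and Dnajb1 and 0.157 for Hsp90aa1. For the slope under that setting it ran from 0.056 for Hspa1b and Hspb8 to 0.091 for Hsp90aa1. No member was called under that setting, and for Hspa1b at 1.0% the highest adjusted p of any setting was 0.934. At 1.0% against control all 12 kept the sign for Hspa1a (−2.14 to −1.05), Hspa1b (−2.37 to −1.35), Hsp90aa1 (0.43 to 1.15), Dnajb1 (−1.23 to −0.54), Hspb8 (−0.79 to −0.18) and Hspb1 (0.40 to 1.03). So did all 11 fits that left out 1 RNA sample, and none of those called a member. With all 24 arrays as separate samples, members called were 1 at 0.1%, 1 at 0.5% and 3 at 1.0% against control, 3 at 0.5% and 5 at 1.0% against 0.1%, 2 at 1.0% against 0.5%, 3 for the slope, 8 over the diets and 17 probe sets. With the replicate block they were 1, 1, 3, 3, 5, 2, 0, 8 and 17. With that block limma called 2726, 433 and 348 of the 13118 genes at the 3 doses against control. Against 0.1% it called 3998 at 0.5% and 2175 at 1.0%. It called 941 at 1.0% against 0.5%, 18 for the slope and 4708 over the diets. For probe sets called in other settings, here and below, no share over all probe sets is given. The replicate numbers do not pair the samples: r of the 36 same-numbered array pairs ran from −0.154 to 0.418 and 6 were over 0.1. Over all genes, limma called 2632, 448 and 402 at the 3 doses with 24 arrays, against 3, 1 and 2. In the other comparisons that fit called 3978 genes at 0.5% against 0.1%, 2113 at 1.0% against 0.1%, 973 at 1.0% against 0.5%, 112 for the slope and 4703 over the diets. Without joining by fingerprint, 1 member was called at 1.0% against 0.1% (Hsp90aa1, 1.53, adjusted p = 0.0208) and 1 probe set over the diets, and 18 genes were called at 0.5% against control, 44 at 0.5% against 0.1% and 154 at 1.0% against 0.1%. Over the diets, 33 genes were called without joining. Genes called at 1.0% against control were 12 with a floor of 32, 8 without a filter and 0 without a trend.

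Values near 0 changed sign. With median centring Hspa8 at 1.0% was −0.13, and at 0.1% Hsph1 was −0.054, Dnajb1 −0.094 and Hspb8 −0.054. Without scaling these were −0.29, −0.14, −0.18 and −0.14, and Hsph1 at 1.0% was −0.11. These settings moved the median of all genes at 1.0% to −0.20 and −0.35. With the mean over probe sets Hspa8 at 0.5% was 0.26, Hspe1 at 1.0% 0.023, and at 0.1% Hsph1 −0.17, Hspb1 −0.058 and Hspb8 −0.062. With probe sets without a suffix Hspa8 at 0.5% was 1.33 and Hspe1 at 1.0% 0.15. These are the values of 1431182_at, the dim probe set, and 1422579_at, read in place of the probe sets with the highest mean. Without joining, Hspe1 at 0.5% was 0.010. With the RNA of 2 labels Hspa8 at 1.0% was −0.0058 and Dnajb1 at 0.1% −0.024. With 24 arrays, blocked or not, Hspa1a (0.042), Hspa1b (0.021) and Hspa8 (−0.023) at 0.1% and Dnajb1 at 0.5% (0.074) turned. Apart from the choice of probe set, the causes were not tested. Leaving out 1 sample gave, at 0.1%, −0.69 to 0.22 for Hspa1a, −0.72 to 0.17 for Hspa1b, −0.10 to 0.45 for Hspa8, −0.72 to 0.059 for Hsp90aa1, −0.14 to 0.42 for Hsph1, −0.27 to 0.27 for Dnajb1 and −0.038 to 0.092 for Hspb8. At 0.5% it gave −1.33 to −0.36 for Hspa1a, −1.44 to −0.54 for Hspa1b, −0.25 to 0.11 for Hspa8, −0.49 to 0.19 for Hsph1, −0.51 to 0.19 for Dnajb1, −0.43 to 1.39 for Hspb1 and −0.073 to 0.052 for Hspe1. At 1.0% it gave −0.17 to 0.82 for Hsph1. Where a diet was left with 1 sample, that sample was assumed to vary like the others.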

Other observations

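In the same RNA with the labels of 2 diets, the remaining chaperone genes were within or below the control range. Hspa1a was at 5.81 and Hspa1b at 10.20, both inside the control range and above the 1.0% samples. Dnajb1 was at 7.52, Hsph1 at 8.0 and Hspa8 at 11.46, of which only Hspa8 was below its controls. Hsp90aa1 was at 9.83 and Hspe1 at 10.67, both below all 4 control samples.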
